A study of Homo sapiens with 3 samples.

Results

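The genes described here encode collagens, laminins, the metalloproteases of the ADAM, ADAMTS and MMP families and the lysyl oxidases, all of them builders, cutters or cross-linkers of the extracellular matrix. They were chosen by gene symbol: every skipped exon whose gene symbol begins as the names of the COL, LAM, ADAM, ADAMTS, MMP and LOX families do was taken. That gave 501 distinct exons of the 39434 in both tables, in 84 of 11271 genes. Of these genes, 3 match by spelling only: LOXL1-AS1 and MMP24-AS1, which are named as antisense to LOXL1 and MMP24, and COL4A3BP, which encodes a ceramide transfer protein. They were kept in the counts over all members and left out of the 6 gene families.

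Exon skipping was compared in BJ cells, an established line of human foreskin fibroblasts, on day 8 after viral expression of OSKM was induced, the factors OCT4, SOX2, KLF4 and MYC that reprogram somatic cells. All 3 groups carried these factors. They differed in the siRNA: 1 library was made from cells given SMAD3 siRNA, 1 from cells given SFRS11 siRNA and 1 from cells given non-targeting siRNA, whose genotype is labelled WT. SMAD3 carries TGF-beta signals to the nucleus, and SFRS11 (now SRSF11) is a splicing factor. The data are 2 tables of the authors' own comparisons, in which a library coded RS2 and a library coded RS3 are each set against 1 further library, the same in both and called the comparator here.

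The siRNA behind RS2, RS3 and the comparator is named in neither labels nor headers, so the codes are kept and nothing is said of which knockdown a value belongs to. An inclusion level is the share of transcripts that keep an exon, and a difference in it can lie between -1 and 1; it is read as RS2 or RS3 minus the comparator. An exon can stand in several rows, each a separate event with its own test. The RS2 table held 459 rows for 411 exons of 79 member genes among 40702 rows in all. The RS3 table held 506 rows for 443 exons of 81 member genes among 42518 rows. Of the 501 exons, 353 were in both tables, 58 in the RS2 table only and 90 in the RS3 table only. With 1 library per group there is no replicate error to give, and the deposited p-values and false discovery rates (FDR) compare 2 libraries, not 2 conditions. The read counts behind each level were not used here, so depth is unknown and no interval is given.

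Collagen chains wind into a triple helix through a repeat in which glycine recurs at every turn, and breaks in that repeat are known to disturb the helix. Fibrillar collagens give connective tissue its tensile strength, network collagens and laminins form basement membranes, and lysyl oxidases cross-link collagen and elastin. The ADAM proteases mostly shed proteins from the cell surface, whereas ADAMTS and MMP proteases act largely on the matrix. Fibroblasts are a main source of many of these proteins, and reprogramming takes them away from the mesenchymal state.

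The following exons carry differences described below, or stand for exons with none. Each was found in GENCODE release 29 (GRCh38) as the one annotated exon of that gene with the listed length. Each is written 5′ to 3′ on the strand of its gene, and capitals mark glycine codons in the annotated reading frame. The first is exon 42 of 44 of COL6A3-201 at chr2:237333450-237333548 on the minus strand, the downstream neighbour of the member exon called in the RS3 table. The COL13A1 exons, on the plus strand, are exon 13 of 39 at chr10:69897475-69897531, which had the largest difference of that gene, and exon 30 of 39 at chr10:69935350-69935391, whose differences had opposite signs. The COL1A1 exon, exon 4 of 51 at chr17:50199418-50199453 on the minus strand, shows the glycine repeat in an exon that hardly differed.
COL6A3 99 bases: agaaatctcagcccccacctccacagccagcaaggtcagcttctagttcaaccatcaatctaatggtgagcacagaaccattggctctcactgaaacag
COL13A1 57 bases: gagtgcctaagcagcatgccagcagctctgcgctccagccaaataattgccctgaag
COL13A1 42 bases: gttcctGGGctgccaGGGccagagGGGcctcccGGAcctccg
COL1A1 36 bases: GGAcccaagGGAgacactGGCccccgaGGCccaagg
In COL6A3 the 99-base exon held 0 glycine codons among 32. In COL13A1 the 57-base exon held 0 among 19 and the 42-base exon 4 among 14, and the COL1A1 exon held 4 among 12.

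Most exons of these genes were kept at nearly the same level in RS2, RS3 and the comparator. Of 459 member rows for RS2, 294 (64.1%) differed by under 0.01, against 37.4% of all rows. For RS3 it was 304 of 506 (60.1%), against 35.4% of all rows. A difference listed as exactly 0 made up 18.1% of member rows and 4.23% of all rows in the RS2 table, and 16.4% and 3.69% in the RS3 table. The median member difference was 0 in both. In 23 genes of each table, every listed row differed by under 0.01, and no row reached 0.1 in 51 of 79 genes for RS2 and 46 of 81 for RS3.

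An event was called where the FDR of the authors' deposited table was under 0.05 and the difference was at least 0.1 in size. By this rule 0 of 459 member rows were called in the RS2 table, where 29 of all rows (0.0712%) were. For RS3, 1 of 506 member rows (0.198%) was called, against 411 of all rows (0.967%). Counted by gene, 0 of 79 member genes had a call in the RS2 table, against 0.238% of all genes, and 1 of 81 (1.23%) had one in the RS3 table, against 3.05%. By FDR alone, 1 member row passed in the RS2 table, where 0.165% of all rows did, and 3 passed in the RS3 table, where 1.64% did. An unadjusted p under 0.05 was listed for 13 member rows (2.83%) for RS2 and 18 (3.56%) for RS3, against 4.52% and 7.61% of all rows.

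Counted by size alone, the member shares that reached 0.1 lay below those of all rows. Of the member rows for RS2, 31 (6.75%) were higher than the comparator by at least 0.1, against 9.73% of all rows, and 22 (4.79%) were lower, against 9.52%. Of those for RS3, 22 (4.35%) were higher, against 8.86%, and 48 (9.49%) were lower, against 12.3%. The share that reached 0.1 in either direction varied by family, and over all rows it was 19.2% for RS2 and 21.2% for RS3. In the RS2 table it was 7.69% of collagen rows, 3.77% of laminin rows, 13.2% of ADAM rows, 27.6% of ADAMTS and ADAMTSL rows, 16.1% of MMP rows and 0 of 22 lysyl oxidase rows. For RS3 it was 11.3% of collagen rows, 1.69% of laminin rows, 12.1% of ADAM rows, 11.8% of MMP rows and 0 of 19 lysyl oxidase rows. The ADAMTS and ADAMTSL share for RS3 was 33.8%, with 20 of its 25 rows lower, 7 of them rows of ADAMTS13. Of the 6 families, only ADAMTS and ADAMTSL lay above the share of all rows, in both tables. Differences between families were not tested.

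**Figure D1:**
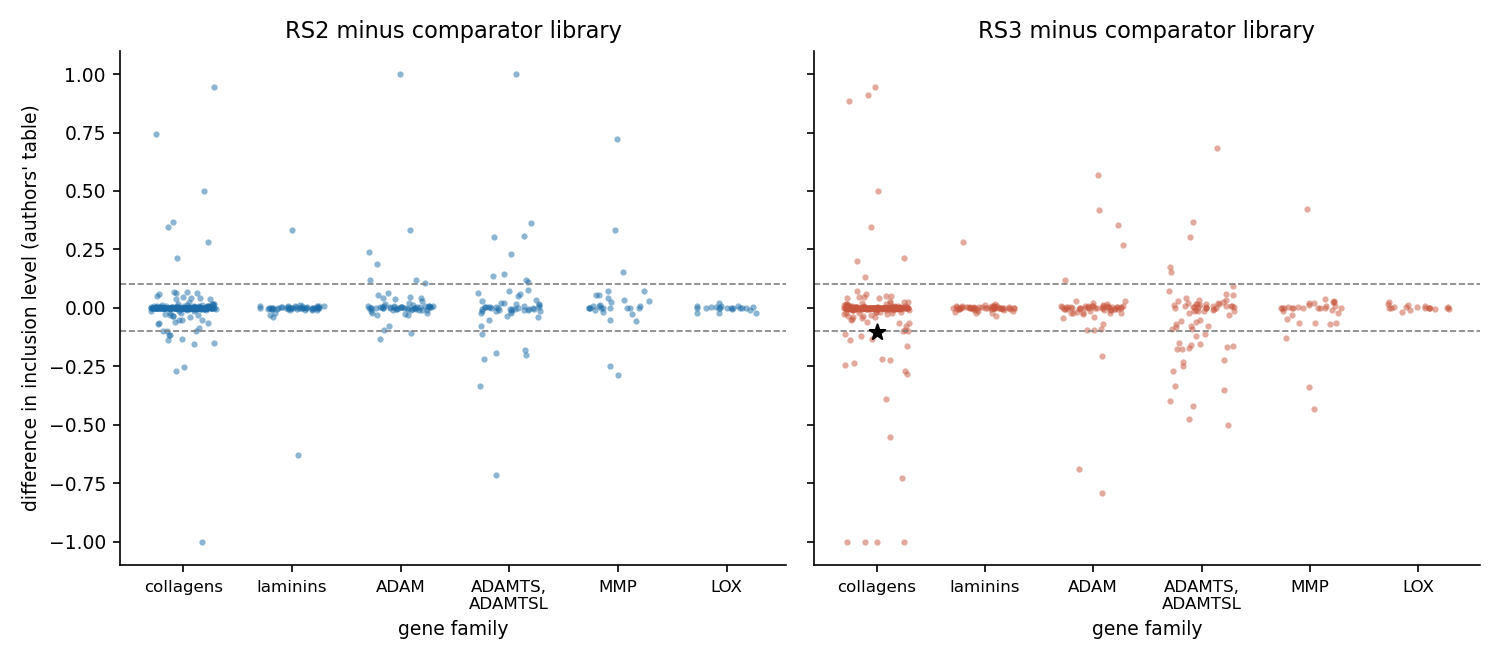
Differences in inclusion level (vertical axis, from -1 to 1) of every listed row, by gene family, for RS2 minus comparator (left) and RS3 minus comparator (right). Each point is 1 row, dashed lines mark 0.1 in either direction, and the star is the called COL6A3 row at -0.102. Lysyl oxidase points all lie near 0, collagen and laminin points gather there with some far from it, and ADAMTS and ADAMTSL have the highest share of points outside the dashed lines, 27.6% for RS2 and 33.8% for RS3.

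The 1 called member was in COL6A3 (ENSG00000163359), which encodes the alpha3 chain of collagen VI, the collagen of beaded microfibrils around cells. Its 264-base exon (hg19 chromosome 2, 238243269 to 238243532) fell by 0.102 in RS3 per the authors' deposited table, with p and FDR listed as 0. A second row of the same exon differed by -0.008 in RS3 per the authors' deposited table, at an FDR of 1. The call thus rests on 1 of the exon's 2 rows, and what sets the rows apart was not analysed here. In RS2 the rows of this exon differed by 0.010 (p = 0.0130, FDR = 0.800) and 0.001 (FDR = 1) per the authors' deposited table.

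The 99-base exon next to it (238242093 to 238242191) had smaller differences of the same signs. It differed by -0.027 (p = 0.00101, FDR = 0.0589) and 0 in RS3, and by 0.007 and 0 in RS2, per the authors' deposited table. Both exons lie near the 3′ end of the gene, which encodes the end of the alpha3 chain beyond the triple helix.

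The large upstream exons of COL6A3 encode von Willebrand factor A domains, and transcripts of this gene are known to differ in which of them they keep. The 603-base exon (238296225 to 238296827) differed by -0.066 (FDR = 0.000276), -0.002 and 0.001 in RS3, and by 0.009 and -0.003 in RS2, per the authors' deposited table. The 600-base exon (238287279 to 238287878) differed by -0.054 in RS2 (p = 1.06e-07, FDR = 0.000228) and by -0.002 in RS3 (FDR = 1) per the authors' deposited table. Both passed the FDR threshold in 1 table and stayed under the minimum size. The 618-base exon (238303230 to 238303847) differed by 0.068 in RS2 (FDR = 1), and by 0.016 and 0.001 in RS3, per the authors' deposited table. All other listed exons of the gene, 8 of 13, lay between -0.002 and 0.006 per the authors' deposited table.

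**Figure D2:**
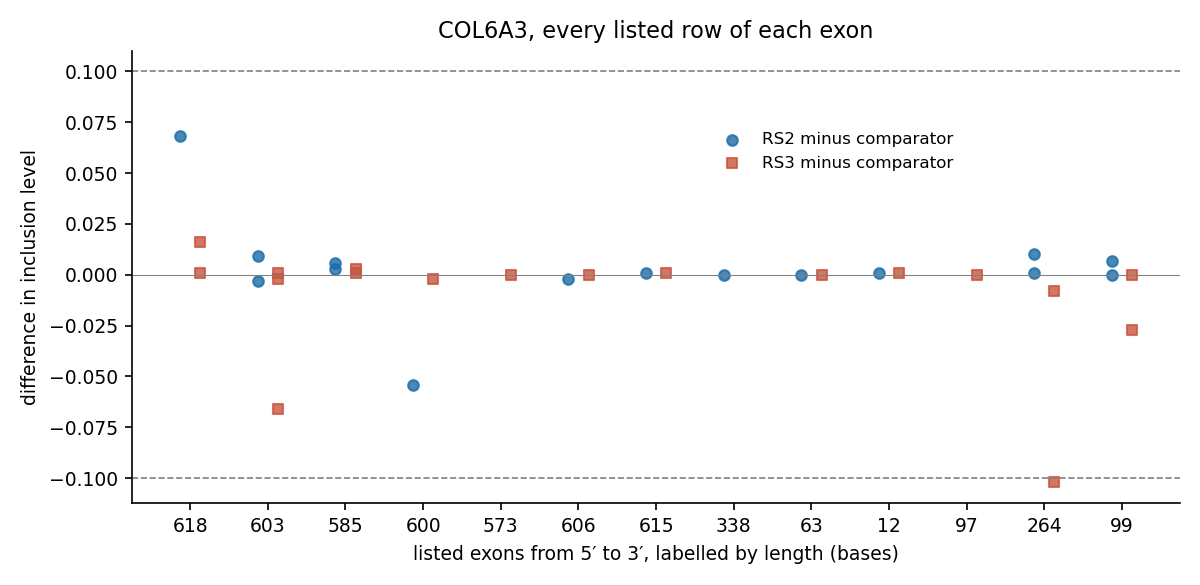
Differences in inclusion level of each listed COL6A3 exon, in order from 5′ to 3′ and labelled by length in bases, with 1 point per row (circles, RS2 minus comparator; squares, RS3 minus comparator) and dashed lines at 0.1 in either direction. The 264-base exon has 1 RS3 row at -0.102 and 1 at -0.008, and most other rows lie near 0.

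The companion chains of collagen VI showed no such spread. COL6A1 stayed between -0.001 and 0.001 in RS2 and, in RS3, between 0 and 0.001 per the authors' deposited table. COL6A2 stayed between -0.003 and 0.001 in both libraries per the authors' deposited table.

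The fibrillar collagens had the highest share of rows under 0.01 of the collagen classes, by a narrow margin. The beaded-filament class, the chains of collagen VI, came next with 88.5% for RS2 and 87.1% for RS3. For RS2, 66 of 74 fibrillar rows (89.2%) differed by under 0.01 and 0 reached 0.1. For RS3, 69 of 77 fibrillar rows (89.6%) differed by under 0.01 and 2 reached 0.1. COL1A1, a chain of collagen I and a main product of fibroblasts, had differences from -0.001 to 0 over 15 exons in RS2 and from 0 to 0.001 over 12 exons in RS3 per the authors' deposited table. Its partner chain COL1A2 differed by 0 at each of the 6 exons listed for RS2 and the 9 listed for RS3 per the authors' deposited table. COL3A1, the collagen III chain, ran from -0.003 to 0.001 over 9 exons in RS2 and from 0 to 0.001 over 9 exons in RS3 per the authors' deposited table.

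COL5A1, a collagen V chain that starts collagen I fibrils, had 11 exons between -0.003 and 0.012 in RS2 and, in RS3, 14 exons between -0.005 and 0.001 per the authors' deposited table. COL11A1, a chain of collagen XI with known alternative exons in its amino-terminal part, had 5 exons between -0.001 and 0.006 in RS2 and, in RS3, 7 exons between -0.005 and 0.006 per the authors' deposited table. The 2 fibrillar rows that reached 0.1 were both 54-base exons and both lower in RS3. In COL27A1 (chromosome 9, 116956684 to 116956737) the difference was -0.243 in RS3 (p = 0.0299, FDR = 0.520) and 0.061 in RS2 (FDR = 1) per the authors' deposited table. In COL5A3 (chromosome 19, 10106742 to 10106795) it was -0.112 in RS3 (FDR = 0.549) and -0.066 in RS2 (FDR = 1) per the authors' deposited table.

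Among the network collagens of basement membranes, COL4A1 and COL4A2, the chains of the common collagen IV, stayed between -0.003 and 0.001 in both libraries per the authors' deposited table. The chains of more restricted membranes, COL4A3, COL4A4, COL4A5 and COL4A6, had wider ranges, with rows on both sides of 0. For COL4A4 the range was -0.135 to 0.049 in RS2 and -0.139 to 0.049 in RS3 per the authors' deposited table. COL4A3 ran from -0.033 to 0.366 in RS2 and from -0.238 to 0.042 in RS3 per the authors' deposited table. The 173-base exon of COL4A5 (chromosome X, 107938497 to 107938669) differed by -0.100 in RS3 (FDR = 0.164) and by -0.007 in RS2 (FDR = 1) per the authors' deposited table. An 81-base exon of COL4A6 (chromosome X, 107553978 to 107554058) differed by -0.388 in RS3 (p = 0.00314, FDR = 0.134) per the authors' deposited table and had no row in the RS2 table. On the higher side, a 115-base exon of COL4A5 was at 0.500 in RS2 and 0.060 in RS3, and a 54-base exon of COL4A6 at 0.348 in both, each with an FDR of 1 per the authors' deposited table.

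COL8A1, a short-chain network collagen, had a 62-base exon (chromosome 3, 99394504 to 99394565) that matched by length an exon noncoding in the transcript found. It stood in 4 rows of each table. These ran from 0.001 to 0.067 in RS2 (p = 0.0259, FDR = 0.972 at the highest) and from -0.011 to 0.133 in RS3 (p = 0.00654, FDR = 0.219 at the highest) per the authors' deposited table. None of these network collagen differences passed the FDR threshold.

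COL13A1 (ENSG00000197467), a transmembrane collagen of cell adhesion sites whose transcripts are known for extensive alternative splicing, had 8 listed exons. Its rows ran from -0.270 to 0.024 in RS2 and from -0.553 to 0.199 in RS3 per the authors' deposited table. The 57-base exon without glycine codons (chromosome 10, 71657231 to 71657287) differed by -0.270 in RS2 (p = 0.176, FDR = 1) and by -0.553 in RS3 (p = 0.00201, FDR = 0.0974) per the authors' deposited table. It was lower than the comparator in both libraries, without passing the threshold in either.

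The 66-base exon after it (71658453 to 71658518) differed by -0.253 and -0.053 in RS2, and by -0.217 (FDR = 0.927) and 0.018 in RS3, per the authors' deposited table. In GENCODE release 29 this exon too held 0 glycine codons, among 22. The 36-base exon (71700744 to 71700779) differed by -0.115 in RS2 and -0.119 in RS3 per the authors' deposited table. The 42-base exon, which holds the glycine repeat (71695106 to 71695147), differed by -0.118 in RS2 and 0.199 in RS3 (FDR = 1 in both) per the authors' deposited table. COL13A1 thus had rows of at least 0.1 in size in an exon with the glycine repeat and in exons without glycine.

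**Figure D3:**
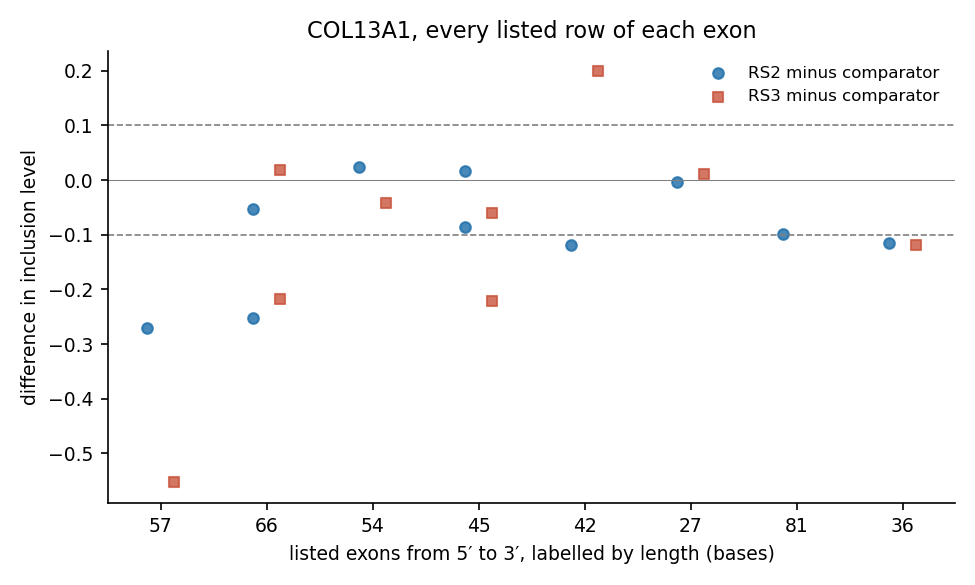
Differences in inclusion level of each listed COL13A1 exon, in order from 5′ to 3′ and labelled by length in bases, with 1 point per row (circles, RS2 minus comparator; squares, RS3 minus comparator) and dashed lines at 0.1 in either direction. The 57-base exon is lowest, at -0.270 in RS2 and -0.553 in RS3, and the 42-base exon has a point on each side of 0.

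Among the other transmembrane collagens, COL17A1, a collagen of hemidesmosomes, had 11 exons between -0.062 and 0.002 in RS2 and, in RS3, 15 exons between -0.095 and 0.023 per the authors' deposited table. COL25A1, a membrane collagen of neurons, was listed at 0.742 and -0.101 in RS2 and at -1, -0.726, 0.500 and -0.281 in RS3, each with an FDR of 1 per the authors' deposited table. These are different exons in the 2 tables.

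COL7A1, the collagen of the anchoring fibrils that hold skin to its basement membrane, had the most listed exons of any member gene, 27. In RS2 its 23 rows stayed between -0.013 and 0.012 per the authors' deposited table. In RS3 a single row, of a 36-base exon, was at -1 (p = 0.172, FDR = 0.969), and the highest of the 24 rows was 0.023, per the authors' deposited table.

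COL18A1, whose end is released as endostatin, had 8 exons. It and COL15A1 are the multiplexins, collagens with many interruptions of the helix. The COL18A1 rows were between -0.006 and 0.041 in RS2, and in RS3 all but a 27-base exon at -1 (FDR = 0.956) lay between -0.023 and 0.006, per the authors' deposited table. That 27-base exon had no row in the RS2 table. In COL15A1, which had no row in the RS2 table, a 63-base exon was at -1 in RS3 (p = 0.109, FDR = 0.861) per the authors' deposited table. Fibril-associated collagens had large differences, none of them called. A 74-base exon of COL21A1 was at 0.944 in both libraries and a 69-base exon of COL9A3 at 0.212 in both, each with an FDR of 1 per the authors' deposited table. Overlapping exons of COL9A2, of 172 and 228 bases, were at 0.885 and 0.911 in RS3 (FDR = 1 for both) per the authors' deposited table and had no row in the RS2 table. By length, the COL21A1 exon and the 228-base COL9A2 exon matched exons that are noncoding in the transcript found. A 114-base exon of COL22A1, a collagen of muscle-tendon junctions, was at -1 in RS2 (p = 0.105, FDR = 1) per the authors' deposited table and had no row in the RS3 table. Both tables use the same comparator library, so equal values in RS2 and RS3 are not independent.

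Laminins, the cross-shaped trimers of the basement membrane, were nearly as even as the fibrillar collagens. Of their rows, 2 of 53 for RS2 and 1 of 59 for RS3 reached 0.1. LAMB1, the beta1 chain, had 13 exons between -0.008 and 0.013 in RS2 and, in RS3, 14 exons between -0.014 and 0.017 per the authors' deposited table. Its 258-base exon (chromosome 7, 107642572 to 107642829) differed by -0.014 in RS3 (p = 0.000309, FDR = 0.0234) and by -0.008 in RS2 (FDR = 1) per the authors' deposited table. That passed the FDR threshold at a size far below the minimum of 0.1.

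LAMA5, the alpha5 chain, had the most listed laminin exons, 16, with 17 rows between -0.040 and 0.010 in RS2 and 14 rows between -0.021 and 0.011 in RS3 per the authors' deposited table. LAMC1, the gamma1 chain shared by most laminins, stayed between 0 and 0.001 in RS2 and, in RS3, between -0.001 and 0.001 per the authors' deposited table. The 3 rows that reached 0.1 were in LAMC3 and LAMB4, which encode a gamma and a beta chain. A 148-base exon of LAMC3 was at 0.333 in RS2 and 0.282 in RS3, and an 80-base exon of LAMB4 at -0.629 in RS2 (p = 0.489), each with an FDR of 1 per the authors' deposited table. LAMB4 had no row in the RS3 table.

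ADAM15 (ENSG00000143537), a membrane protease with an integrin-binding disintegrin domain, is known for alternative exons that change its cytoplasmic tail. It had 15 listed exons, the most in its family. Its 29 rows ran from -0.132 to 1 in RS2 and its 28 rows from -0.093 to 0.569 in RS3, with smallest FDRs of 0.978 and 0.879, per the authors' deposited table. Of its exons, 3 end at the same base (chromosome 1, 155028328) and differ in where they start. They do not lie at the 3′ end of the gene: the 63-base form matched exon 7 of 21 of ADAM15-201 by length. The 151-base form, and an 80-base exon of the gene, matched exons that are noncoding in the transcript found. The 151-base form differed by -0.108 in RS2 (p = 0.0290, FDR = 0.989), and by 0.354 and 0.030 in RS3, per the authors' deposited table. The 66-base form differed by -0.079 (FDR = 0.983) and 0.186 in RS2, and by 0.015 in RS3, per the authors' deposited table.

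The 63-base form differed by -0.031 (FDR = 0.978) and 0.003 in RS2, and by 0.010 and 0.003 in RS3, per the authors' deposited table. The listed exons nearest the 3′ end, of 72 and 214 bases, share a start (155034380). The shorter ran from 0.009 to 0.238 in RS2 and from 0 to 0.569 in RS3 per the authors' deposited table. The longer ran from 0 to 0.105 in RS2 and from -0.001 to 0.417 in RS3 per the authors' deposited table. Which listed exons encode the tail was not analysed here. The value of an ADAM15 exon therefore depended on the row: rows of 1 exon in 1 library could lie on both sides of 0.

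**Figure D4:**
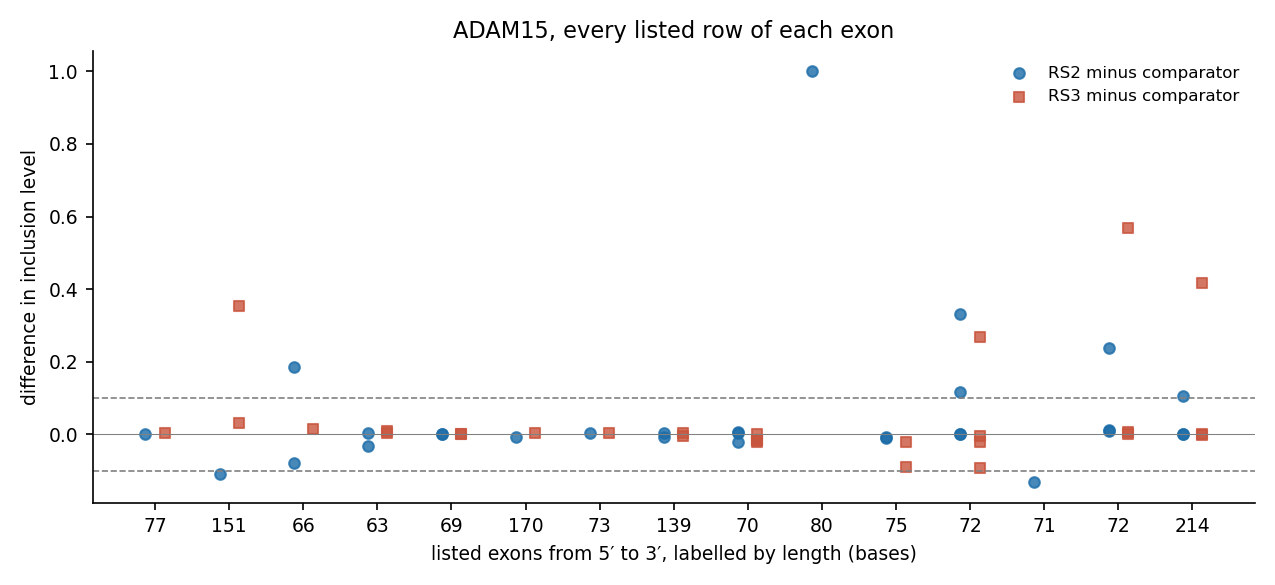
Differences in inclusion level of each listed ADAM15 exon, in order from 5′ to 3′ and labelled by length in bases, with 1 point per row (circles, RS2 minus comparator; squares, RS3 minus comparator) and dashed lines at 0.1 in either direction. Many rows lie near 0, an 80-base exon has a single RS2 row at 1, and several exons have rows both near 0 and above 0.1.

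ADAM17 and ADAM10 are the main sheddases of the family. An 89-base exon of ADAM17, which sheds tumour necrosis factor (chromosome 2, 9675963 to 9676051), differed by -0.792 in RS3 (p = 0.015, FDR = 0.355) per the authors' deposited table and had no row in the RS2 table. A 119-base exon of ADAM10, which cuts Notch receptors, differed by -0.690 in RS3 (FDR = 0.868) per the authors' deposited table and also had no row in the RS2 table. ADAM12 and ADAM19 were even: ADAM19 had 12 exons between -0.004 and 0.008 in RS2 and, in RS3, 14 exons between -0.022 and 0.006 per the authors' deposited table.

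The ADAMTS and ADAMTSL genes had the highest share of rows reaching 0.1 among the 6 families in both tables, and 0 of these rows passed the FDR threshold. ADAMTS5, an aggrecan-cutting protease, had a 168-base exon (chromosome 21, 28315699 to 28315866) at -0.091 in RS3 (p = 0.00155, FDR = 0.0803) per the authors' deposited table. This exon had no row in the RS2 table. ADAMTS7, which cuts cartilage oligomeric matrix protein, had overlapping exons of 145 bases (chromosome 15, 79069786 to 79069930) and 1401 bases (79068530 to 79069930). They differed by -0.122 (FDR = 0.143) and -0.270 (FDR = 0.181) in RS3 per the authors' deposited table and had no row in the RS2 table. By length, the 1401-base exon matched one that is noncoding in the transcript found.

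ADAMTS6 had 3 exons that were lower than the comparator by at least 0.1 in both libraries. Its 103-base exon differed by -0.715 in RS2 and -0.222 in RS3, its 159-base exon by -0.218 and -0.353, and its 146-base exon by -0.111 and -0.249, per the authors' deposited table. The 159-base and 146-base exons overlap and share a boundary. A 115-base exon of ADAMTS10, whose product binds fibrillin microfibrils, was at 1 and 0.309 in RS2 and at 0.304 and 0.686 in RS3 per the authors' deposited table. By length it matched an annotated exon that is noncoding in the transcript found. ADAMTS13, the protease of von Willebrand factor, had 6 exons between -0.200 and 0.143 in RS2 and, in RS3, 7 exons between -0.400 and 0.072 per the authors' deposited table.

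The ADAMTS-like genes encode matrix proteins without a protease domain. In ADAMTSL5 a 148-base exon (chromosome 19, 1511624 to 1511771) differed by -0.192 in RS2 (p = 0.00225, FDR = 0.376) and by -0.015 in RS3 per the authors' deposited table. A 103-base form of that exon, with the same lower boundary, differed by -0.179 in RS2 (FDR = 0.964) and -0.056 in RS3 per the authors' deposited table. In ADAMTSL4, whose product binds fibrillin, a 74-base exon (chromosome 1, 150522298 to 150522371) matched by length an exon that is noncoding in the transcript found. It differed by 0.232 in RS2 (p = 0.00336, FDR = 0.465) and by 0.175 in RS3 (FDR = 0.864) per the authors' deposited table. In contrast, the procollagen protease ADAMTS2 stayed between -0.006 and 0.004 in RS2 and, in RS3, between -0.032 and 0.041 per the authors' deposited table.

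Among the matrix metalloproteases, MMP2 (gelatinase A) was at 0 in RS2 and between -0.001 and 0 in RS3, and MMP14, which activates it, was at 0 in all rows, per the authors' deposited table. MMP19 had the most exons of its family, 6, in 11 rows of each table. Its 147-base exon (chromosome 12, 56234451 to 56234597) differed by 0.074 (p = 0.0306) and 0.029 in RS2, and by 0.022 and 0.028 in RS3, per the authors' deposited table. Its 102-base exon (56234890 to 56234991) differed by 0.054 and 0.723 in RS2, and by -0.431 (FDR = 0.925) and -0.069 in RS3, per the authors' deposited table.

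MMP28 had a 246-base exon at 0.333 in RS2 and 0.425 in RS3 (FDR = 1 in both) per the authors' deposited table. The lysyl oxidases had no row of that size. Their largest difference was that of a 220-base exon of LOXL3, at -0.024 in RS2 and 0.027 in RS3 per the authors' deposited table. LOXL2, with 9 exons in RS2 and 6 in RS3, stayed between -0.006 and 0.003 in RS2 and, in RS3, between -0.008 and 0.004, and LOX between -0.001 and 0.001 in RS2 and, in RS3, between 0 and 0.003, per the authors' deposited table.

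Differences of at least 0.5 were rare and mostly without a small p. The RS2 table had 9 such member rows (1.96%, against 3.61% of all rows), 6 higher and 3 lower, with a smallest p of 0.105 per the authors' deposited table. The RS3 table had 16 (3.16%, against 3.45%), 7 higher and 9 lower, of which 3 had an unadjusted p under 0.05, with a smallest FDR of 0.0974 per the authors' deposited table. A size of exactly 1 was listed in 3 of the 9 rows and in 4 of the 16, which means a level of 1 in one library and of 0 in the other.

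The listed collagen exons differed in length from all listed exons. Exon length is set by the genes chosen, so these shares describe the genes and not the libraries compared. Of 255 collagen exons, 220 (86.3%) had a length that was a multiple of 3 bases and so, where coding, keeps the reading frame when skipped, against 41.1% of all 39434 exons. A multiple of 9 bases, the length that a whole number of glycine triplets would take, was found for 148 (58%), against 13.8%. Exactly 54 bases were found for 50 (19.6%), against 0.598%. In the fibrillar collagens 90 of 91 exons (98.9%) were multiples of 3, 75 (82.4%) multiples of 9 and 44 (48.4%) exactly 54 bases long.

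The other families lay nearer to all exons. A multiple of 3 was found for 42.9% of laminin exons, 29.1% of ADAM exons, 27.8% of ADAMTS and ADAMTSL exons, 55.6% of MMP exons and 30.4% of lysyl oxidase exons. Among collagen exons, a difference of at least 0.1 was listed for 6 of 117 multiples of 9 (5.13%), 7 of 59 other multiples of 3 (11.9%) and 4 of 30 remaining exons (13.3%) in the RS2 table. For RS3 the counts were 15 of 131 (11.5%), 8 of 63 (12.7%) and 5 of 29 (17.2%). Exons of 1 gene share its expression level, and these shares were not tested against each other.

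Of the 255 collagen exons, 112 matched exactly 1 annotated exon of their gene by length, and 104 of these were wholly coding. The glycine repeat, 1 glycine codon at the same place in each run of 3, was unbroken in 15 of the 104, and 8 held no glycine codon. Multiples of 9 bases were 12 of the 15, 1 of the 8 and 12 of the 81 others. Among these placed exons, a length that is a multiple of 9 thus did not by itself mark an unbroken repeat. The 15 exons with the unbroken repeat ran from -0.118 to 0.212 in RS2 and from -0.238 to 0.212 in RS3 per the authors' deposited table. The 50 exons of 54 bases could not be placed this way, because their genes have several exons of that length. The same held for other lengths that recur within a gene, so most of the 148 multiples of 9 are not among the placed exons.

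**Figure D5:**
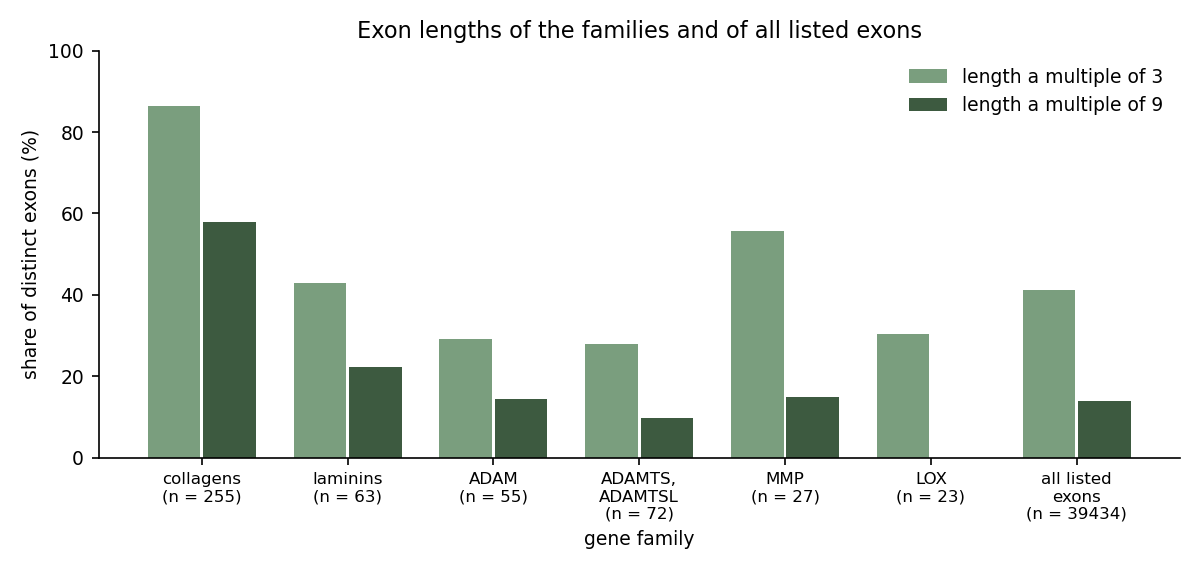
Share of distinct exons (vertical axis, percent) whose length is a multiple of 3 (light bars) or of 9 bases (dark bars), for each family and for all listed exons, with the number of exons under each pair of bars. Collagens stand at 86.3% and 58%, against 41.1% and 13.8% of all exons.

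Genes that modify, secrete, bind or cut collagens and laminins were followed as 7 further lists. For RS2, 0 of 82 such genes had a called event, against 0.238% of all genes. For RS3, 2 of 82 (2.44%) had one, against 3.05% of all genes, and both were lower. CRTAP, a subunit of the complex that 3-hydroxylates prolines of procollagen, fell by 0.171 in RS3 at a 129-base exon (chromosome 3, 33171431 to 33171559; p = 5.87e-07, FDR = 0.000127) per the authors' deposited table. A second row of that exon was at 0 in RS3, and its rows in RS2 were at -0.044 and -0.003 (FDR = 1 for all 3), per the authors' deposited table.

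NID2, the nidogen that links laminin to collagen IV, fell by 0.119 in RS3 at a 144-base exon (chromosome 14, 52493919 to 52494062; p = 6.25e-14, FDR = 4.36e-11) per the authors' deposited table. The same exon differed by -0.008 in RS2 (FDR = 1) per the authors' deposited table. The lists of collagen receptors, fibril partners, protease inhibitors, other collagen proteases and the secretion pathway had 0 called genes in either table. These lists held only 5 to 20 genes each, and 0.238% (RS2) and 3.05% (RS3) of all genes were called. A count of 0 is therefore not read as a result about them.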

How the data were processed

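mRNA libraries (TruSeq kit) of BJ fibroblasts, 1 for each of 3 siRNA groups, were compared by the authors. The submitters' processing notes name STAR, FastQC and the genome build hg19, without versions, and for the splicing program the sources used here give no name. In each deposited row stand a p-value, its FDR and the difference in inclusion level, which is the authors' score of 1 exon. The 4 columns of level per library were not used, because no label ties them to a siRNA. A single look at them, made outside the scripts, served to fix the sign: the difference is the level listed first minus that listed second, the second being the library both tables share.

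Here rows were selected by gene symbol, and calls required the authors' deposited FDR under 0.05 and a size of at least 0.1. Shares were set beside all rows of the same table. A Benjamini-Hochberg adjustment recomputed from the deposited p-values, tested on simulated data, moved 0 member events. Exons were matched between tables on gene, strand, start and end. Where an exon has several rows, all are given or the row with the smallest p. Coordinates are in hg19 unless GRCh38 is named. Exon sequences and reading frames come from GENCODE release 29, matched by gene and length only, since no hg19 genome was used. The sequence of the called COL6A3 exon is not reported here.

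Exons were named by rule: every called member, the 10 uncalled exons with the smallest p per table, the exon of largest size per family, called partner genes (up to 3 per list), the gene with the most exons per family, and COL6A3, COL5A1, COL11A1, COL13A1, COL18A1 and ADAM15. Other exons, and the sequences shown, were chosen after their values were seen. The members and lists were chosen with earlier results of these data known. Alternatives varied the thresholds, the adjustment, the rows per exon, the exons and the members. Python 3.11.15, pandas 2.3.3, numpy 2.4.6, scipy 1.17.1 and matplotlib 3.10.9 were used.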

Additional observations from a re-analysis of the deposited data

Results flagged for a closer look

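Of the 300 member exons with 1 row in each table, 4 lay at least 0.1 from the comparator on opposite sides in RS2 and RS3. The 42-base exon of COL13A1 was at -0.118 in RS2 and 0.199 in RS3 per the authors' deposited table. The 121-base exon of ADAMTS13 (chromosome 9, 136303366 to 136303486) was at 0.143 in RS2 and -0.164 in RS3, and its 185-base exon (136323032 to 136323216) at 0.117 in RS2 and -0.156 in RS3, per the authors' deposited table. The 111-base exon of MMP24-AS1 (chromosome 20, 33823884 to 33823994), a match by spelling only, was at 0.286 in RS2 and -0.381 in RS3 per the authors' deposited table. All 8 values had an FDR of 1 per the authors' deposited table, and no test compared RS2 with RS3, so the difference was not tested. Among the same 300 exons, 8 were higher by at least 0.1 in both libraries and 5 lower in both, with the comparator shared. The matching counts over all listed exons were not made, so whether any of these counts is unusual is not known.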

How the results depend on the processing

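The calls depended on the thresholds. The count of called member rows, 0 in the RS2 table and 1 in the RS3 table, became 1 and 2 with a minimum difference of 0.05, 1 and 3 with no minimum, and 6 and 11 with an unadjusted p under 0.05 in place of the FDR. With no minimum, 0.165% of all rows passed in the RS2 table and 1.64% in the RS3 table. For the other limits, and by gene, the matching counts over all rows were not made. Whether these member counts are unusual is therefore not known. Counted by gene, 0 and 1 became 1 and 2 with no minimum and 5 and 10 with the unadjusted p, and the RS2 count was 1 with a minimum of 0.05. For RS3, 0 rows and 0 genes remained called with a minimum of 0.2 or with an FDR under 0.01 and a minimum of 0.2, since the called COL6A3 exon differed by 0.102 in size, and among exons in a single row, since it has 2 rows, the other at -0.008 in the authors' deposited table. The share of member rows past the size limit was 19% at 0.05 and 6.32% at 0.2 in the RS2 table (11.5% at 0.1), and 20.6% and 8.89% in the RS3 table (13.8% at 0.1). Among exons listed in both tables the RS3 share was 10.9%. For these counts, shares, medians and length shares, the other 52 values stayed within their limits, among them those without the ADAMTSL genes and those without the 3 genes that match by spelling only, an alternative chosen after seeing the data. Some of the 52 could not move: from an RS2 count of 0, stricter limits or fewer rows can only return 0. No paired analysis was possible because each group has 1 library, and for the same reason no replicate could be left out.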
